A study of Homo sapiens with 89 samples.

Results

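Transcripts of 34 p53 target genes were followed through 5 groups of RNA-seq libraries from 2 human neuroblastoma cell lines. The genes were taken by symbol from a list, and all 34 have a row among the 57905 genes counted. IMR-32 cells are adrenergic and have many copies of MYCN. They held an inducible shRNA that targets EXOSC10, a 3'-5' exonuclease of the nuclear RNA exosome. Their groups were 3 control libraries without doxycycline, in columns named EtOH, and 3 depleted libraries with the shRNA induced by 1 µg/ml doxycycline. SHEP cells are mesenchymal and their MYCN gene is not amplified. Their libraries, 3 in each group, are labelled as lacking MYCN (no doxycycline), wild type MYCN or MYCN 3A. Both labelled MYCN groups had 1 µg/ml doxycycline, and the labels give 3A as a triple mutant that is deficient in RNA binding. Doxycycline therefore cannot be told apart from the shRNA or from either MYCN construct. The labels do not say whether replicates were separate cultures, so each p-value measures the spread between these libraries.

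The transcription factor p53 is held at a low level by the ubiquitin ligase MDM2, itself a p53 target, and accumulates when DNA is damaged or ribosome production is disturbed. It then switches on genes that halt the cell cycle, repair DNA, alter metabolism or start apoptosis. In neuroblastoma, amplified MYCN is known both to drive growth and to sensitise cells to apoptosis. The nuclear exosome trims and degrades many kinds of RNA, ribosomal RNA precursors among them.

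Promoter windows of the members are shown first, as a description of sequence motifs of p53 and of the MYC family close to their start sites. RefSeq windows (GRCh38.p14, 250 bases before to 50 after each start) were found by symbol for 26 members, 38 windows in all. They were searched on both strands for the p53 decamer, the 10-base element that occurs as a pair in a full p53 site, and for CACGTG, the E-box bound by MYC family proteins, which does not overlap the decamer consensus. The decamer was in 18.4% of the member windows and in 6.63% of all 35116 windows. It was found for 7 members, PLK2, SESN1, FAS, DDB2, RPS27L, AEN and FDXR. SESN1, FAS, DDB2 and FDXR had several windows, and not all of them held it. Windows of a gene can overlap, as in MDM2 and CCNG1, so the windows are not independent. DDB2 alone among the members had 2 decamers at most 13 bases apart, as do 0.0285% of all windows. CACGTG was in 7.89% of the member windows (BAX, AEN and BBC3) and in 7.26% of all windows, and 4 or more copies as in BAX were in 0.0142%. Of the members that rose on EXOSC10 depletion, PLK2, SESN1, RPS27L, AEN and FDXR had a decamer. The windows of MDM2, CDKN1A, PLK3, ZMAT3, BAX, TRIAP1, XPC, POLH, TP53I3 and SPATA18, which rose as well, had none. PHLDA3 and TNFRSF10B also rose, but no window was found for them. Sites outside the windows, or with letters that depart from the consensus, were not searched for. FAS, with a decamer, was not called there, and BBC3, with CACGTG, was called in no comparison within a line. A match describes the letters and shows no binding, and whether a motif goes with a change was not tested. The 250 bases before the start are printed for BAX, whose repeats are rare, and for AEN, RPS27L and FDXR, 3 members that rose on EXOSC10 depletion, and the 30 bases from the start for DDB2. Capitals mark CACGTG in BAX and the decamer in the others.
BAX (chr19:48954625-48954874, + strand, GRCh38.p14): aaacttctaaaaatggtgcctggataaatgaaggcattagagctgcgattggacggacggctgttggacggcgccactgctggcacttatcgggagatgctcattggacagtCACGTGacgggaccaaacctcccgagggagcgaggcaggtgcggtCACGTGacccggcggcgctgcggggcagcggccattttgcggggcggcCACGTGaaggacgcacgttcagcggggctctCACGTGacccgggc
AEN (chr15:88621090-88621339, + strand, GRCh38.p14): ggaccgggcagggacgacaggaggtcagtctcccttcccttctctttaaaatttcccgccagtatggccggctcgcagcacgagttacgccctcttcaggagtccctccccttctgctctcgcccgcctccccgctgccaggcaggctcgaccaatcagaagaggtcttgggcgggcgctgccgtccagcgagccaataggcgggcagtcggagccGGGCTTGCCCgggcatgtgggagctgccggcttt
RPS27L (chr15:63157478-63157727, - strand, GRCh38.p14): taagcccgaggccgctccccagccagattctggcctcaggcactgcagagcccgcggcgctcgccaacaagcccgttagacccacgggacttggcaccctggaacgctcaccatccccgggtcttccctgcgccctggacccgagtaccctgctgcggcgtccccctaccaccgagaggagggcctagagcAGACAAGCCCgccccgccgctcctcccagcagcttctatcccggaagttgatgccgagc
FDXR (chr17:74872995-74873244, - strand, GRCh38.p14): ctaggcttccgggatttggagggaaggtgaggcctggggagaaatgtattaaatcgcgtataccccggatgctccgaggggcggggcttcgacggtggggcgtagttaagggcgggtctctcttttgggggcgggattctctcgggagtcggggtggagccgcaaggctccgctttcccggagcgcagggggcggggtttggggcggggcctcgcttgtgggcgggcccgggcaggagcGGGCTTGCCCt
DDB2 (chr11:47214974-47215003, + strand, GRCh38.p14): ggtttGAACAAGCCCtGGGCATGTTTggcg
Counted from the start, with negative positions before it, the BAX copies begin at -138, -93, -45 and -14. The decamers begin at -34 in AEN, -59 in RPS27L, -11 in FDXR, and at 6 and 17 in DDB2. AEN also has CACGTG at 9.

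Libraries held 16394148 to 26193478 counts in IMR-32 and 11638859 to 15353505 in SHEP. Adrenergic markers summed to 3077 to 3317 CPM (each count relative to the TMM-adjusted total of its library) in IMR-32 controls and to 69.9 to 87.6 CPM in the SHEP libraries, where DBH and TH had no count, and mesenchymal markers summed to 603 to 636 and 5880 to 7213 CPM. Leukocyte, endothelial, epithelial and Schwann cell markers each summed to at most 16.4 CPM. EXOSC10 fell by 0.54 on the log2 scale in the depleted IMR-32 libraries (SE 0.08, adjusted p = 2.27e-08, edgeR quasi-likelihood test). MYCN was counted 4, 0 and 0 times in the SHEP libraries labelled as lacking it, 2, 0 and 0 times in those labelled wild type MYCN and 10, 0 and 0 times in those labelled MYCN 3A. The MYCN labels of SHEP are thus not borne out by its count, and groups are given below as labelled. Whether transcripts of the constructs would be counted under the MYCN gene model was not tested. MYC was lower in both labelled groups than without MYCN, by log2 fold changes of -0.75 (SE 0.21, adjusted p = 0.0115) and -1.44 (SE 0.22, adjusted p = 9.78e-05).

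The first comparison asks which transcripts depend on EXOSC10 in a line with amplified MYCN. Many of the p53 targets rose when EXOSC10 was depleted. Of 30 tested members 17 were called higher and 1 lower, while of all 17103 tested genes 27.1% were called, 13.5% higher and 13.7% lower. The median log2 fold change was 0.34 over the members and -0.0011 over all tested genes. The rises were modest, from 1.23-fold in BAX to 1.81-fold in SPATA18, and the fall was that of PMAIP1, to 0.457 times its control level. Ranges of the groups did not overlap for 20 members, against 38.4% of all tested genes. As in any bulk RNA measurement, more or fewer expressing cells cannot be told apart from more or less RNA per cell.

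**Figure D1:**
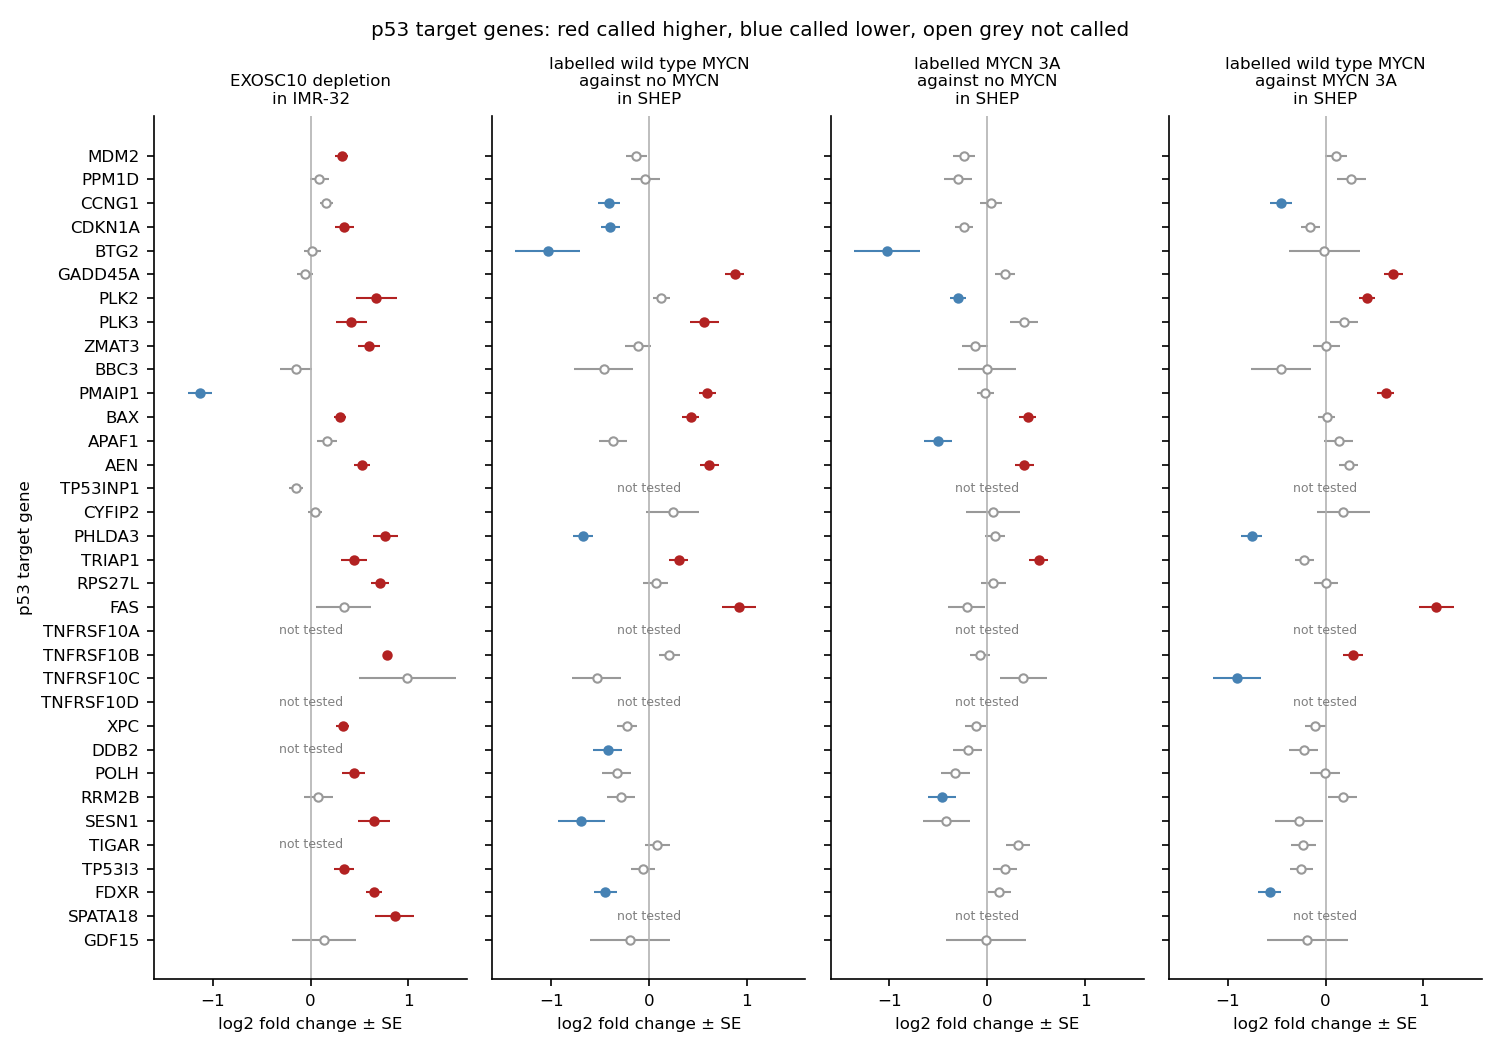
Log2 fold change ± SE (x axis) of each p53 target gene (y axis) in the 4 comparisons within a line, 3 libraries against 3, with filled red for genes called higher, filled blue for genes called lower and open grey for genes not called. On EXOSC10 depletion 17 members lie to the right as red points and PMAIP1 lies at -1.13, while the SHEP comparisons have calls on both sides of 0.

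Among the genes that feed back on p53, MDM2 stood at 83.5, 98.3 and 103 CPM in the controls and at 110, 123 and 122 CPM in the depleted libraries. Every depleted library was above every control, and the log2 fold change was 0.32 (SE 0.06, adjusted p = 6.67e-05, edgeR). PPM1D, a phosphatase that dampens p53 signalling, and CCNG1, cyclin G1, were not called, with log2 fold changes of 0.09 (SE 0.10) and 0.16 (SE 0.07). CCNG1 was called with library totals (0.18, adjusted p = 0.038), and its groups did not overlap.

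Of the 6 genes of cell cycle arrest, 4 were called higher, beside 13.5% of all tested genes. CDKN1A encodes p21, the inhibitor of cyclin-dependent kinases, and had 26.9, 24.0 and 25.5 CPM in the controls and 32.0, 31.9 and 32.9 CPM in the depleted libraries. These ranges were apart, and the log2 fold change was 0.34 (SE 0.10, adjusted p = 0.00455, edgeR). ZMAT3, an RNA-binding zinc finger protein, went from 15.9, 17.2 and 16.4 CPM to 25.5, 24.5 and 24.8 CPM (0.59 on the log2 scale, SE 0.11, adjusted p = 1.36e-05). PLK2, a polo-like kinase, was scarce, at 4.03, 3.92 and 4.80 CPM in the controls and 5.92, 7.31 and 7.09 CPM after depletion. Its depleted libraries were all higher, by 0.67 on the log2 scale (SE 0.21, adjusted p = 0.0104), but without depleted replicate 3 the call was lost (adjusted p = 0.0527). PLK3, a second polo-like kinase of stress responses, changed by 0.42 (SE 0.16, adjusted p = 0.0397). That call of PLK3 was lost in 5 of the 6 fits that left out a library (edgeR adjusted p = 0.05004 to 0.2105) with no filter on low counts (adjusted p = 0.063) and in DESeq2 (adjusted p = 0.07). BTG2, an anti-proliferative cofactor of mRNA deadenylation, and GADD45A, a stress sensor that binds kinases and PCNA, were not called (0.02, SE 0.09, and -0.06, SE 0.08).

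Of 10 genes around mitochondrial apoptosis, 5 rose and PMAIP1 fell, beside 13.5% of all tested genes called higher and 13.7% lower. PMAIP1, which encodes the BH3-only protein NOXA, had 23.2, 29.9 and 27.7 CPM in the controls and 11.7, 14.3 and 11.1 CPM after depletion. Its highest depleted library was well below its lowest control, and the log2 fold change was -1.13 (SE 0.12, adjusted p = 3.74e-12, edgeR). BAX, the pore-forming member of the BCL2 family, went the other way, by 0.30 (SE 0.06, adjusted p = 0.000149). AEN, a nuclease that takes part in apoptotic DNA breakdown, had 34.7, 38.1 and 38.9 CPM in the controls and 54.3, 54.3 and 52.4 CPM in the depleted libraries. The gap between its groups was wide beside the spread within them, and its log2 fold change was 0.53 (SE 0.08, adjusted p = 2.58e-07).

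PHLDA3, which restrains AKT at the membrane, rose from 13.7, 10.5 and 10.9 CPM to 17.7, 21.7 and 20.3 CPM (log2 fold change 0.76, SE 0.13, adjusted p = 2e-06, edgeR). RPS27L, a ribosomal protein S27 paralogue that is induced by p53, rose from 23.6, 29.1 and 29.5 CPM to 43.3, 45.5 and 45.3 CPM (0.71, SE 0.09, adjusted p = 2.55e-09). Both had no overlap between control and depleted libraries, and control replicate 1 was the lowest library of RPS27L. Reads of RPS27L could be shared with its close paralogue RPS27, so its value is less certain than the others. TRIAP1, a small mitochondrial protein that opposes apoptosis, rose by 0.44 (SE 0.13, adjusted p = 0.00676), a call lost without control replicate 1 (adjusted p = 0.127). BBC3, which encodes PUMA, APAF1, the apoptosome scaffold, TP53INP1, a cofactor of p53 in apoptosis and autophagy, and CYFIP2, an actin regulator, were not called, with log2 fold changes of -0.15, 0.17, -0.15 and 0.04.

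TNFRSF10B, the TRAIL receptor DR5, was the most abundant member of the IMR-32 libraries and had the smallest p-value. It stood at 385, 364 and 390 CPM in the controls and at 655, 649 and 651 CPM after depletion. The replicates lay close together in both groups, and the log2 fold change was 0.78 (SE 0.04, adjusted p = 2.33e-25, edgeR). FAS, the other death receptor with reads, was not called at 2.47 to 2.69 CPM and 2.84 to 3.49 CPM (0.34, SE 0.28). TNFRSF10C, a decoy receptor for TRAIL, was at 0.380 to 1.31 CPM in the controls and was not called (0.99, SE 0.50). Without control replicate 1 it would be called, at 1.67 and adjusted p = 0.0325. TNFRSF10A, the TRAIL receptor DR4, had 0 counts in all 15 libraries and TNFRSF10D, another decoy, had 5 counts in all. A count of 0 over the 3 controls allows up to 0.0484 CPM, for counting error only.

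Of the DNA repair genes, XPC, the damage sensor of nucleotide excision repair, rose by 0.33 (SE 0.07, adjusted p = 5.39e-05, edgeR), and POLH, the translesion polymerase eta, rose by 0.44 (SE 0.12, adjusted p = 0.00267). RRM2B, the p53-inducible ribonucleotide reductase subunit, was not called (0.08, SE 0.15). DDB2, a second damage sensor, had 0 to 8 counts in a library and was not tested in IMR-32.

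All 4 of the tested genes of metabolism and mitochondrial quality were called higher, beside 13.5% of all tested genes. These groups of members are small, so nothing is read from their counts. FDXR, ferredoxin reductase, had 36.4, 37.4 and 35.0 CPM in the controls and 61.5, 53.3 and 55.0 CPM after depletion. SESN1, a sestrin that limits mTORC1, had 6.07, 7.25 and 9.56 CPM against 10.5, 13.4 and 12.1 CPM. SPATA18, which takes part in the removal of damaged mitochondrial proteins, had 3.93, 6.07 and 3.95 CPM against 8.52, 8.88 and 7.96 CPM. None of these 3 genes had overlapping groups, although the controls of SESN1 and SPATA18 were spread. The log2 fold changes were 0.64 (SE 0.08, adjusted p = 1.28e-09) for FDXR, 0.65 (SE 0.16, adjusted p = 0.00123) for SESN1 and 0.86 (SE 0.20, adjusted p = 0.000398) for SPATA18 in edgeR. TP53I3, a quinone oxidoreductase, rose by 0.34 (SE 0.10, adjusted p = 0.00583), and the call was lost without control replicate 2 (adjusted p = 0.0955) or depleted replicate 3 (adjusted p = 0.0507). TIGAR, which lowers fructose-2,6-bisphosphate, had 0 counts in all 6 IMR-32 libraries. GDF15, the secreted member of the list, was not called (0.14, SE 0.33).

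**Figure D2:**
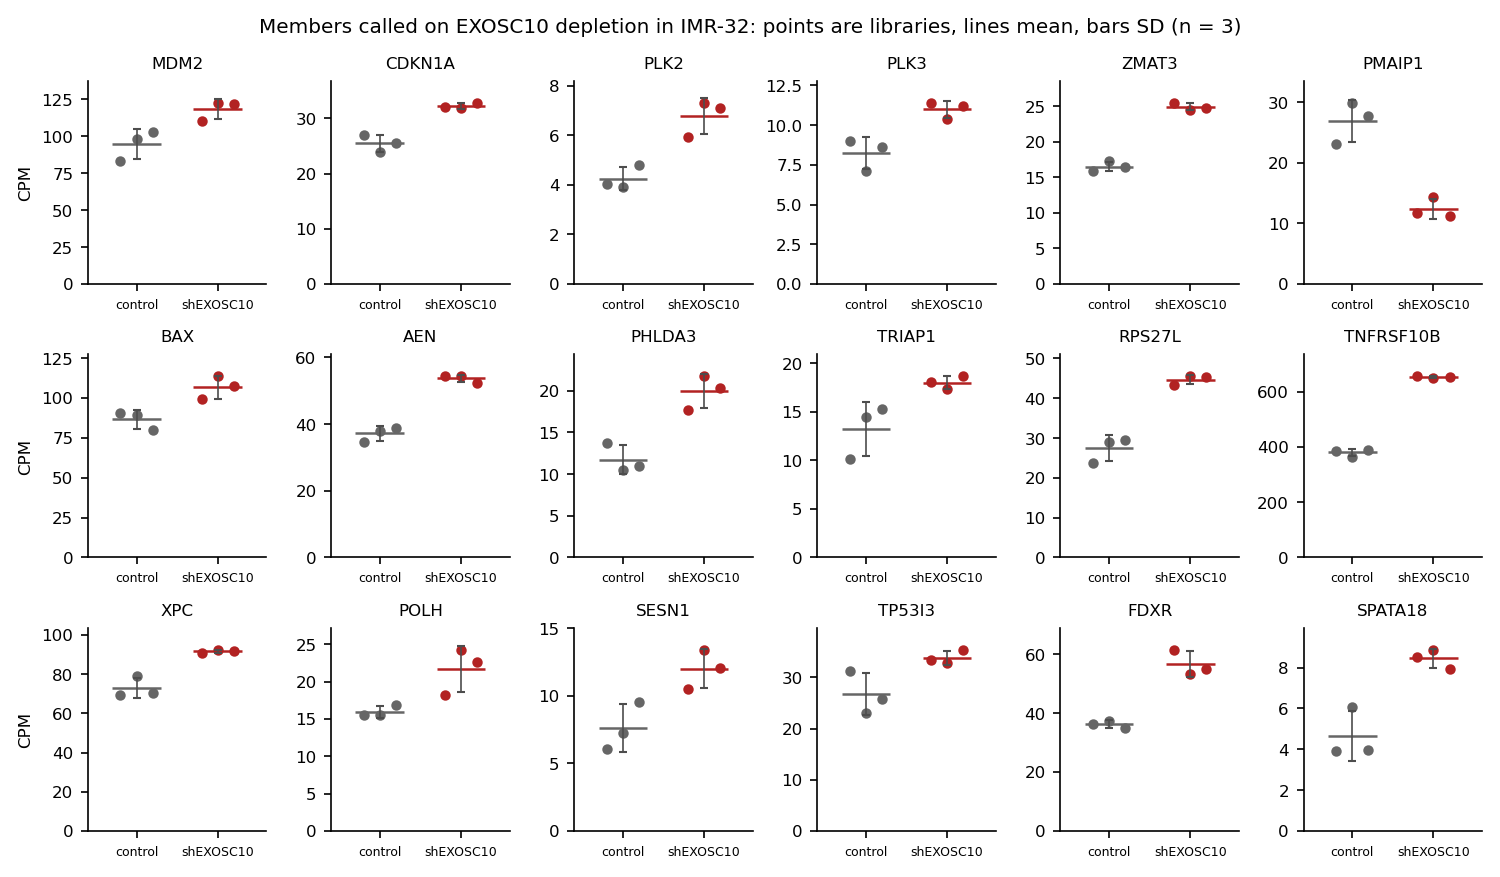
CPM (y axis, from 0) of the 18 members called on EXOSC10 depletion, in each control and depleted IMR-32 library, with a line at the mean and a bar for the SD (n = 3). Depleted libraries lie above the controls in every panel except that of PMAIP1, where they lie below, at 11.1 to 14.3 against 23.2 to 29.9 CPM.

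The members together took 0.122 to 0.128% of the counts in the controls and 0.168 to 0.173% in the depleted libraries. TNFRSF10B made up 29.0 to 31.2% of those counts in the controls and 38.0 to 39.4% after depletion, and without it the shares were 0.0838 to 0.0892% and 0.101 to 0.107%. MDM4, the p53-binding relative of MDM2, was not called (0.06, SE 0.05).

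Other genes of the pathway were read from lists chosen for their function, with earlier results of these data known. Over all tested genes the shares were 13.5% higher and 13.7% lower. Of 25 tested genes that regulate p53, 3 were higher and 6 lower, among them RPL5 and RPL11, the ribosomal proteins that bind MDM2 (both -0.28), and PPP1R13B, which encodes the p53 cofactor ASPP1 (0.57). Of 28 other p53 targets, 11 were higher and 4 lower. FUCA1, a lysosomal fucosidase, rose by 0.96, while SESN2, a second sestrin, and the stress transcription factor ATF3 changed by -0.85 and -1.33. Of 18 cell cycle genes that p21 represses through the DREAM complex, 3 were lower, E2F1, CCNB1 and CCNB2 (-0.25, -0.27 and -0.24), and the others were not called. Also on EXOSC10 depletion, 7 of 8 adrenergic markers fell and 1 rose, their sum going to 1810 to 1869 CPM, the mesenchymal markers went to 791 to 822 CPM with PRRX1 at 0 counts, and MYCN changed by -0.87 (SE 0.04). Mitochondrially encoded transcripts went from 5.72 to 6.46% of counts to 6.87 to 7.12%. The part of these shifts in the p53 target result was not tested.

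In SHEP, the question was what MYCN and its RNA-binding-deficient form do to the transcriptome. In the libraries labelled wild type MYCN the members moved both ways. Of 30 tested, 7 were called higher and 7 lower than without MYCN, while of all 14923 tested genes 22.2% were called, 10.9% higher and 11.3% lower. Groups did not overlap for 19 members (37.5% of all genes), and the median log2 fold change was -0.12 (all genes -0.0044). The genes that rose were GADD45A, PLK3, PMAIP1, BAX, AEN, TRIAP1 and FAS. Those that fell were CCNG1, CDKN1A, BTG2, PHLDA3, DDB2, SESN1 and FDXR. In the apoptosis group 9 genes were tested, of which 4 rose, 1 fell and 4 were not called. Over all genes 1634 calls were higher and 1681 lower, but with scaling by library totals the split was 1163 and 2147. The direction of these 14 members was the same under either scaling, and with library totals TRIAP1 was not called (adjusted p = 0.0826) while APAF1 was (-0.43, adjusted p = 0.037). These directions rest on labels that the MYCN count does not bear out.

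MDM2 was not called, at 89.7, 85.0 and 88.6 CPM without MYCN and 85.3, 81.5 and 74.1 CPM in the wild-type-labelled libraries (-0.13, SE 0.11). The ranges overlapped by a narrow margin. CCNG1 fell by 0.41 on the log2 scale (SE 0.11, adjusted p = 0.0103, edgeR), and PPM1D was not called (-0.04). Without replicate 2 of the libraries labelled as lacking MYCN, the adjusted p of CCNG1 was 0.0563.

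CDKN1A stood at 73.8, 77.3 and 81.0 CPM without MYCN and at 57.4, 55.5 and 63.9 CPM in the wild-type-labelled libraries. All 3 labelled libraries were lower, with a log2 difference of -0.39 (SE 0.09, adjusted p = 0.00337, edgeR). GADD45A moved the other way, from 80.6, 69.7 and 79.4 CPM to 127, 139 and 157 CPM (0.88, SE 0.10, adjusted p = 8.95e-07). PLK3 rose from 13.4, 15.4 and 15.03 CPM to 20.6, 21.8 and 22.4 CPM (0.57, SE 0.14, adjusted p = 0.00633). Both had every labelled library above every library without MYCN. BTG2 was scarce, at 4.46, 3.13 and 3.59 CPM against 1.90, 1.86 and 1.69 CPM (-1.04, SE 0.34, adjusted p = 0.0288). Leaving out any of 4 libraries ended the BTG2 call (adjusted p = 0.0621 to 0.131). PLK2 and ZMAT3 were not called (0.13 and -0.11).

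In the apoptosis group, PMAIP1 rose from 78.7, 76.4 and 74.8 CPM to 112, 121 and 115 CPM in the wild-type-labelled libraries, and the log2 fold change was 0.60 (SE 0.09, adjusted p = 2.75e-05, edgeR). AEN rose from 78.4, 76.7 and 82.4 CPM to 131, 118 and 114 CPM (0.62, SE 0.10, adjusted p = 7e-05). The libraries of both genes were well apart by label. PHLDA3 fell from 50.8, 52.5 and 60.4 CPM to 32.9, 34.5 and 35.0 CPM, with tight values in the labelled group (-0.68, SE 0.10, adjusted p = 4.24e-05). BAX rose by 0.43 (SE 0.09, adjusted p = 0.000944). TRIAP1 changed by 0.31 (SE 0.10, adjusted p = 0.0273), a call lost without any of 4 libraries (adjusted p = 0.0531 to 0.15). BBC3, APAF1, CYFIP2 and RPS27L were not called (-0.46, -0.37, 0.24 and 0.07). TP53INP1 did not pass the filter on low counts. It had 16, 2 and 8 counts without MYCN, 0 in each wild-type-labelled library and 6, 4 and 2 in the 3A-labelled ones. Against a floor of 3 counts over the wild-type-labelled libraries, it was at least 8.55-fold higher without MYCN. That bound covers counting error only and is too high if read ends were counted separately. With no filter, 7 members were called lower though DDB2 was not, so a member outside the main test was called.

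Of the receptors, FAS rose from 6.19, 6.56 and 6.40 CPM to 11.9, 10.7 and 13.7 CPM (0.92, SE 0.18, adjusted p = 0.00054, edgeR). Its lowest labelled library was above all 3 libraries without MYCN. TNFRSF10B and TNFRSF10C were not called (0.21 and -0.53). Among repair genes DDB2 changed by -0.42 (SE 0.15, adjusted p = 0.0438), and the call was lost in DESeq2 (adjusted p = 0.0644), with no filter (adjusted p = 0.0982) and in 7 of 9 fits that left out a library (adjusted p = 0.0516 to 0.201). XPC, POLH and RRM2B were not called (-0.22, -0.33 and -0.29).

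FDXR changed by -0.45 (SE 0.12, adjusted p = 0.00793, edgeR), which was lost without replicate 3 of the libraries labelled as lacking MYCN (adjusted p = 0.0555) or wild-type-labelled replicate 2 (adjusted p = 0.0624). SESN1 had 5.57, 7.45 and 7.33 CPM without MYCN and 3.26, 5.65 and 3.67 CPM in the wild-type-labelled libraries. These ranges overlapped, and the call (-0.69, SE 0.24, adjusted p = 0.0405) was lost in DESeq2 (adjusted p = 0.0714) and without any of 4 libraries (adjusted p = 0.121 to 0.141). TIGAR, TP53I3 and GDF15 were not called (0.09, -0.06 and -0.20), and SPATA18 was not tested.

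**Figure D3:**
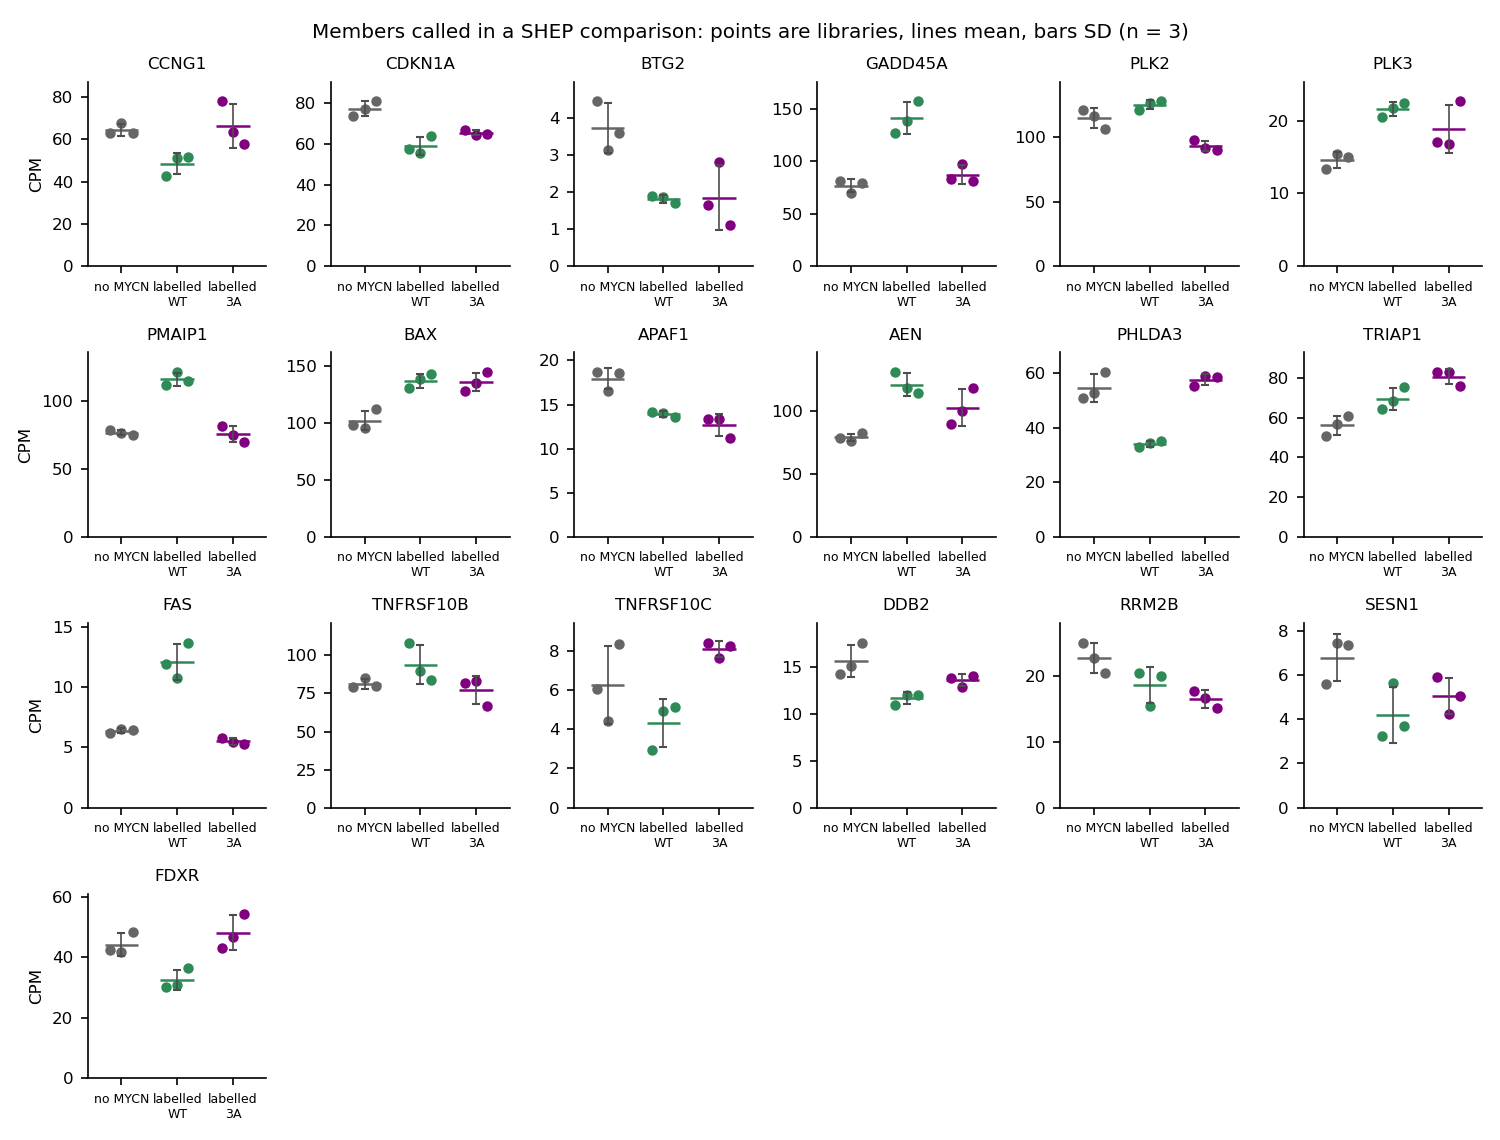
CPM (y axis, from 0) of the 19 members called in at least 1 SHEP comparison, in each library labelled as lacking MYCN, wild type MYCN or MYCN 3A, with a line at the mean and a bar for the SD (n = 3). In the panels of GADD45A, PMAIP1 and FAS the wild-type-labelled libraries stand above both other groups, and in those of PHLDA3 and FDXR they stand below.

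In the libraries labelled MYCN 3A fewer members passed the test. Against the libraries without MYCN, 3 were called higher, BAX, AEN and TRIAP1, and 4 lower, BTG2, PLK2, APAF1 and RRM2B, while 12.7% and 12.8% of all tested genes were called higher and lower. These 7 of 30 are close to the 25.5% of all genes called in either direction, and the median was -0.01 (all genes -0.04). Groups did not overlap for 15 members (41.3% of all genes). With library totals, 1232 of all calls were higher and 2928 lower, against 1893 and 1913 with TMM factors, and the median of all genes moved to -0.14. With that scaling 3 members were called higher and 7 lower, the added ones being CDKN1A, MDM2 and POLH. The direction of the 7 genes did not change with the scaling. TRIAP1 had 50.9, 56.5 and 60.7 CPM without MYCN and 82.8, 82.9 and 76.1 CPM in the 3A-labelled libraries (0.52, SE 0.10, adjusted p = 0.000569, edgeR). APAF1 had 18.7, 16.5 and 18.5 CPM against 13.4, 13.3 and 11.3 CPM (-0.50, SE 0.15, adjusted p = 0.014), and BTG2 had 1.64, 2.81 and 1.10 CPM in the 3A-labelled group (-1.02, SE 0.34, adjusted p = 0.0304). The groups of all 3 genes were apart, with BTG2 again the scarcest.

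BAX rose by 0.41 (SE 0.09, adjusted p = 0.00152, edgeR) and AEN by 0.38 (SE 0.10, adjusted p = 0.00716), while PLK2 changed by -0.30 (SE 0.08, adjusted p = 0.0123) and RRM2B by -0.46 (SE 0.15, adjusted p = 0.0225). BAX and TRIAP1 were called in every fit run. The others lost their call without 1 or more libraries: AEN without 3A-labelled replicate 3 (adjusted p = 0.0629), APAF1 without that library or replicate 1 of those labelled as lacking MYCN (0.0654 and 0.0655), and BTG2, PLK2 and RRM2B without 4, 2 and 4 libraries (0.0541 to 0.148). CDKN1A stood at 67.0, 64.6 and 65.0 CPM and was below every library without MYCN, but was not called (-0.24, SE 0.09, adjusted p = 0.0609). It was called with library totals (-0.34, adjusted p = 0.00881). MDM2 stood at 81.2, 83.9 and 58.7 CPM, replicate 3 being the lowest, and was not called (-0.24, SE 0.11, adjusted p = 0.121). MDM2 and POLH too were called with library totals (-0.33, adjusted p = 0.0394, and -0.43, adjusted p = 0.0462). GADD45A, PLK3, ZMAT3, PMAIP1 and PHLDA3 were not called (0.18, 0.38, -0.12, -0.02 and 0.08), nor were PPM1D, CCNG1, BBC3, CYFIP2, RPS27L, FAS, TNFRSF10B, TNFRSF10C, XPC, DDB2, POLH, SESN1, TIGAR, TP53I3, FDXR and GDF15, which lay between -0.42 and 0.37.

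The direct contrast of the 2 labelled MYCN groups tested where they differed. Of 30 members, 5 were higher in the wild-type-labelled than in the 3A-labelled libraries, GADD45A, PLK2, PMAIP1, FAS and TNFRSF10B, and 4 were lower, CCNG1, PHLDA3, TNFRSF10C and FDXR. These 9 of 30 are close to the 30.3% of all genes called, 15.8% higher and 14.5% lower, and 16 members did not overlap (40.4% of all genes). FAS was at 5.81, 5.44 and 5.27 CPM in the 3A-labelled libraries, less than any of the wild-type-labelled ones, a log2 difference of 1.13 (SE 0.18, adjusted p = 7.59e-05, edgeR). GADD45A was at 82.6, 97.2 and 81.2 CPM and PMAIP1 at 81.9, 75.1 and 69.9 CPM in the 3A-labelled libraries. Both were close to their levels without MYCN, and the log2 differences were 0.69 (SE 0.10, adjusted p = 2.03e-05) and 0.62 (SE 0.09, adjusted p = 2.12e-05).

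PHLDA3 and FDXR were also close to the level without MYCN in the 3A-labelled libraries, at 55.2, 58.9 and 58.7 CPM and at 43.2, 46.8 and 54.5 CPM. The wild-type-labelled libraries were lower, with log2 differences of -0.76 (SE 0.10, adjusted p = 1.3e-05, edgeR) for PHLDA3 and -0.57 (SE 0.12, adjusted p = 0.000926) for FDXR. TNFRSF10C had 2.92, 4.94 and 5.15 CPM in the wild-type-labelled and 8.42, 7.64 and 8.27 CPM in the 3A-labelled libraries (-0.91, SE 0.25, adjusted p = 0.00772), while the libraries without MYCN spread from 4.40 to 8.34 CPM. CCNG1 differed by -0.45 (SE 0.11, adjusted p = 0.00416) and PLK2 by 0.43 (SE 0.08, adjusted p = 0.000612). TNFRSF10B differed by 0.28 (SE 0.10, adjusted p = 0.0451), and lost its call in DESeq2 (adjusted p = 0.0527), with median-ratio factors (adjusted p = 0.0513), in a fit of only these groups (adjusted p = 0.0631) and in 7 of 9 fits without a library (adjusted p = 0.0508 to 0.258). BAX, AEN and TRIAP1, the members called higher in both labelled groups, did not pass the test between them (0.01, 0.24 and -0.22, SE 0.09 to 0.10). AEN was called, however, with library totals (0.27, adjusted p = 0.0373) and without replicate 3 of the wild-type-labelled (0.28, adjusted p = 0.0448) or the 3A-labelled libraries (0.35, adjusted p = 0.0119). TRIAP1 was called without wild-type-labelled replicate 3 (-0.28, adjusted p = 0.0461). For CDKN1A and MDM2 the difference was -0.15 and 0.11 (SE 0.09 and 0.11).

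MDM4 was not called in any of the 3 SHEP comparisons. EXOSC10 was lower in the 3A-labelled libraries than without MYCN (-0.40, SE 0.11) and higher in the wild-type-labelled than in the 3A-labelled ones (0.60, SE 0.11). With the wild type label, 3 regulators of p53 were higher and 2 lower of 25, RPL11 (0.30) and the deubiquitinase USP7 (0.30) among them. Over all tested genes the shares with this label were 10.9% higher and 11.3% lower. Of 28 other p53 targets 6 were higher and 1 lower, led by the ephrin receptor EPHA2 (0.69), the KIT ligand KITLG (0.64) and the chaperone HSPA4L (0.52), and of 18 DREAM targets 2 were higher, E2F1 at 0.37 among them, and 3 lower, CDC25C (-0.57) and BUB1 (-0.27) among them.

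With the 3A label the counts were 2 and 5 of 25 regulators (RPL5 0.45, PPP1R13L -0.45, WRAP53 0.42), 1 and 1 of 28 other targets (PCNA 0.33, E2F7 -0.80) and 2 and 7 of 18 DREAM targets (BUB1 -0.44, ECT2 -0.46, KIF23 -0.46). Between the labelled groups, wild type against 3A, they were 6 and 2 of 25 (PPP1R13L 0.69, PRKDC 0.62, HIPK2 0.58), 8 and 3 of 28 (EPHA2 0.89, KITLG 0.98, E2F7 1.14) and 3 and 3 of 18 (ECT2 0.48, KIF23 0.41, AURKB -0.43). Over all tested genes the shares were 12.7% higher and 12.8% lower with the 3A label, and 15.8% and 14.5% between the labelled groups. The 3 SHEP comparisons share libraries, so their calls are not independent of each other. Mesenchymal markers also differed by label: 3 of 8 were higher and 3 lower with the wild type label, 5 were lower with the 3A label, and between the labelled groups all 8 were called, 6 higher and 2 lower with the wild type label, while their sum was 6810 to 7213 CPM without MYCN, 6993 to 7136 CPM with the wild type label and 5880 to 6216 CPM with the 3A label. The part of these shifts in the members' calls was not tested.

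The IMR-32 and SHEP comparisons share no library, and members went the same way in some cases only. Of the 17 members that rose on EXOSC10 depletion, 4 also rose in the wild-type-labelled SHEP libraries, AEN, BAX, PLK3 and TRIAP1, and 4 fell there, CDKN1A, FDXR, PHLDA3 and SESN1. As 7 of all 30 members tested there rose and 7 fell, and the overlap over all genes was not computed, nothing is read from these counts. PMAIP1 fell in IMR-32 and rose in SHEP. AEN, BAX and TRIAP1 were called higher in the 3A-labelled libraries as well. Whether the effects differ between the lines was not tested.

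Levels were compared between genes and lines as RPKM, counts per library size and exonic length, scaled over all 15 libraries. In IMR-32 controls TNFRSF10B led with 69.3 ± 2.9 RPKM (SD, n = 3), then BAX with 31.5 ± 2.2, GADD45A with 21.1 ± 2.0 and CCNG1 with 20.7 ± 0.83, the last 2 not differing beyond their spread. In SHEP without MYCN the order began with BAX at 41.1 ± 3.4, TRIAP1 at 40.4 ± 3.4, GADD45A at 38.5 ± 3.0 and PMAIP1 at 35.7 ± 1.1 RPKM. Neighbours among these 4 lay within their spread, and TNFRSF10B stood at 16.4 ± 0.62 RPKM. MDM2 was nearly level between the lines, 11.1 ± 1.2 and 11.4 ± 0.34 RPKM, while CDKN1A stood at 8.03 ± 0.53 in IMR-32 and 27.0 ± 1.1 RPKM in SHEP.

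Between IMR-32 controls and SHEP without MYCN, 9 of 32 tested members were called higher in IMR-32 and 18 lower. Over all 17657 tested genes 87.9% were called, 46.5% higher and 41.4% lower, and line and table cannot be told apart. Groups did not overlap for 27 members (88.6% of all genes). The median difference was -0.46 for the members and 0.15 for all tested genes. Some members were close to absent in a line. TIGAR was at least 599.5-fold higher in SHEP, where it had 17.2 ± 1.8 RPKM, against a floor of 3 counts over the 3 IMR-32 controls. That bound covers counting error only and is too high if the ends of a read pair were counted separately. DDB2 had 0.0895 ± 0.098 RPKM in IMR-32 and 8.82 ± 0.95 in SHEP (log2 difference -6.54, SE 0.35, adjusted p = 3.45e-18, edgeR), and PLK2 had 0.839 ± 0.097 and 25.1 ± 1.8 RPKM (-4.89, SE 0.11, adjusted p = 1.83e-28). The difference of DDB2 rests on few IMR-32 counts and went from -5.99 without control replicate 1 to -7.74 without control replicate 3.

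In the other direction TP53INP1 had 12.2 ± 1.2 RPKM in IMR-32 and 0.105 ± 0.077 in SHEP (6.79, SE 0.20, adjusted p = 1.75e-24, edgeR), and by 7.49 without SHEP replicate 1, its highest. CYFIP2 differed by 3.92 (SE 0.14), BTG2 by 3.20 (SE 0.15) and TNFRSF10B by 2.09 (SE 0.06). SPATA18 had 288 counts over the IMR-32 controls and 2 over the SHEP libraries without MYCN, a ratio of 91.8 (exact 95% interval 25.2 to 761, counting error only). Both SHEP counts of SPATA18 were in replicate 1, and the fitted log2 difference went from 6.33 to 9.34 without it. PPM1D, BBC3, APAF1 and XPC were also higher in IMR-32, by 0.40 to 0.77. The genes lower in IMR-32 besides those named were BAX, ZMAT3, POLH, FDXR, GADD45A, PLK3, AEN, RRM2B, RPS27L, FAS, PMAIP1, CDKN1A, TRIAP1, PHLDA3 and TNFRSF10C, from -0.38 to -3.20. Without IMR-32 control replicate 1, that of TNFRSF10C was -3.90. MDM2, CCNG1, SESN1, TP53I3 and GDF15 were not called, from -0.21 to 0.13. MDM4 was 3.40 higher in IMR-32 on the log2 scale (SE 0.08).

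**Figure D4:**
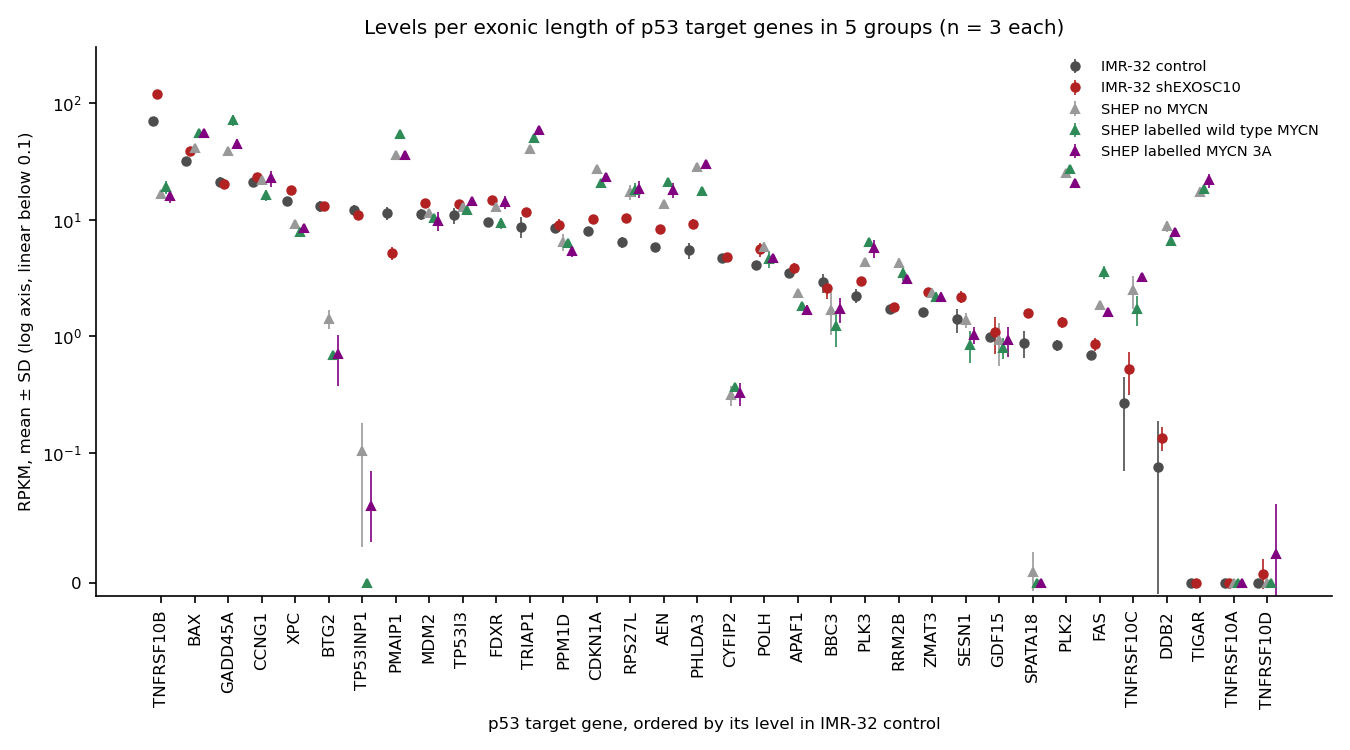
RPKM (y axis, log scale, linear below 0.1) of each p53 target gene in the 5 groups, as mean ± SD of 3 libraries, with genes ordered by their level in IMR-32 controls (x axis). Circles are IMR-32 and triangles SHEP, and PLK2, DDB2 and TIGAR stand far higher in SHEP while TP53INP1, SPATA18, CYFIP2 and BTG2 stand far higher in IMR-32.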

How the data were processed

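RNA-seq libraries of polyadenylated RNA were analysed for 15 of the 89 samples, and the other 74 were not analysed here. The deposited values are raw counts per gene on 57905 gene models, made by the authors with STAR 2.7.10a and featureCounts 2.0.3 per the submitters' processing notes. The file header of the SHEP table gives hg19, Ensembl release 87, strand setting 2 and a minimum overlap of 10 bases, and says that a read over several genes counts for all of them. For the IMR-32 table, which has the same gene models, settings are not given in the sources used here. Samples of newly made, 4sU-labelled RNA from IMR-32 have groups with like names, so its EtOH and DOX columns were joined to these libraries by table name, column name and replicate number, with the lower EXOSC10 count of the DOX columns as a check. Of counts of 1 to 10, 65.5 to 77.1% were even, so the ends of a read pair appear to be counted separately and counting intervals are too narrow. MDM2 shares 5.48% of its exonic length with a gene on its own strand, and no other member shares any.

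Tests used edgeR 4.0.16 in R 4.3.3: filterByExpr, TMM factors, the robust quasi-likelihood F test and Benjamini-Hochberg adjustment over all tested genes, called at 0.05. The 3 SHEP groups shared 1 fit. SE is the absolute log2 fold change over the root of F. CPM used TMM factors within a line, and RPKM used TMM factors over all 15 libraries and the exonic length. The quasi-likelihood script was tested on simulated data with 200 changed genes. Of log2 changes of 0.5, it recovered 62.1% for EXOSC10 depletion, 50% for wild type and 42.4% for 3A against no MYCN. Between the labelled groups it recovered 42.4%, and between the lines 56.1%. False calls made up 4.05 to 6.94% of the calls. The simulation changed 200 of 14923 to 17657 genes, a far smaller share than was called in the data (22.2 to 87.9%). Its recovery is therefore not the recovery in these data. A gene not called can still have changed by such an amount. Alternatives were median-ratio factors, library totals, no filter, DESeq2 1.42.0, a replicate block, a fit of only the groups compared, and each library left out. Every member is named, and values per library are given for members called with an absolute log2 fold change of at least 0.5 within a line, and for CDKN1A and MDM2. Of the other lists, up to 3 called genes with the smallest p are named, and 1 gene is not reported here. The members and the lists were chosen with earlier results of these data known. Symbols were matched to 51996 of the gene IDs, and promoter windows came from RefSeq on GRCh38.p14.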

Additional observations from a re-analysis of the deposited data

Results flagged for a closer look

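The 9 members below are listed because their effects in the wild-type-labelled and the 3A-labelled SHEP libraries, each against the libraries without MYCN, differed in edgeR's test of that difference, 3 libraries against 3. They are 30% of the 30 tested members, close to the 30.3% of all tested genes called, so the members as a set do not stand out here. The log2 differences, wild type minus 3A, were 1.13 for FAS, 0.69 for GADD45A, 0.62 for PMAIP1, 0.43 for PLK2 and 0.28 for TNFRSF10B. They were -0.91 for TNFRSF10C, -0.76 for PHLDA3, -0.57 for FDXR and -0.45 for CCNG1. The labelled groups did not overlap for any of these 9 genes, nor for 40.4% of all tested genes. TNFRSF10B was the gene whose call was lost in some fits. All 9 rest on labels that the near-absent MYCN count does not bear out. Groups of 3 were not searched for outlying libraries.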

How the results depend on the processing

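No member called in the main fits changed direction under any alternative. Calls held in every fit for 14 of 18 members on EXOSC10 depletion, 8 of 14 for wild type against no MYCN, 2 of 7 for 3A against no MYCN, 8 of 9 between the forms and 27 of 27 between the lines. Leaving out each library in turn gave 15 to 19, 10 to 14, 3 to 8, 8 to 11 and 27 to 28 called members. For 3A against no MYCN the calls over all genes then ranged from 2166 to 4451, against 3806, the lowest without replicate 1 of the libraries labelled as lacking MYCN, which also gave the 3 members. The highest, 4451, came without wild-type-labelled replicate 1, which is in the same fit but not in that contrast. All these fits have fewer libraries, and the cause of the range was not tested.

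Replicate numbers were not taken to pair the samples, since the labels describe no pairing. Same-number correlations of residuals were 0.025 to 0.044 in IMR-32 and -0.033 to 0.14 in SHEP. For different numbers they were -0.031 to -0.012 and -0.13 to 0.062. Every IMR-32 library correlated best with its own number. In SHEP, replicate 1 without MYCN correlated at 0.138 and 0.119 with replicate 1 of the wild-type-labelled and 3A-labelled libraries. With their replicate 3 it correlated at -0.134 and -0.123. Replicate 3 without MYCN correlated at 0.113 and 0.0619 with their replicate 3, and replicate 2 at -0.00237 and -0.0327 with their replicate 2. These are hints from the data only, and whether the numbers mark a pairing was not tested. With the replicate number as a block, 11 members were called for 3A against no MYCN in place of 7, among them CDKN1A (adjusted p = 0.0285), MDM2 (0.0379), PLK3 (0.0389) and TIGAR (0.0467). The block also called CCNG1 on EXOSC10 depletion (0.0379), and AEN and TRIAP1 between the forms (0.0294 and 0.0448). Over all genes 5251, 4184, 4794 and 5414 were called with the block in the 4 comparisons within a line, against 4639, 3315, 3806 and 4527 without it. Low counts limit TNFRSF10A, TNFRSF10D, TIGAR, DDB2, SPATA18 and TP53INP1 in 1 or both lines.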
